A study of Homo sapiens with 6 samples.

Results

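The endothelin system of ACHN cells is described here through 6 genes, the ligand genes EDN1 and EDN2, the receptor genes EDNRA and EDNRB, and the converting enzyme genes ECE1 and ECE2. They were taken by name as rows of the deposited tables, 6 of 60409 rows, and the set was selected on the measured fold changes of EDN2, which was already known to be lower with both siRNAs in these libraries. The fall of EDN2 against control is therefore given below as a description without a test. ACHN, an established human cell line, derives from a renal cell adenocarcinoma. Cells of the group NC received a negative control siRNA. The groups siMEX3A_1 and siMEX3A_2 are named for the siRNA they received, each against MEX3A, whose protein binds RNA through KH domains. RNA was taken 48 h after transfection from all 3 groups, with 2 libraries per group, and no label states that libraries of 1 group are separate cultures, so p-values measure only the spread between libraries, which may be technical. All cells were of the same line, were transfected, and were sampled at a single time, so an untransfected level was not measured.

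Endothelins are short peptides that constrict blood vessels and act on nearby cells. Each is made as a long precursor that furin-type proteases cut to an inactive intermediate, which the membrane metalloproteases ECE1 and ECE2 then trim to the active peptide. EDNRA and EDNRB are G protein-coupled receptors that signal mainly through Gq and phospholipase C. EDNRA prefers the products of EDN1 and EDN2, while EDNRB binds all endothelins and also clears them. In the kidney, endothelin from tubule cells is known for its control of salt excretion.

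The active peptides of both ligand genes are nearly alike, and the coding bases show this. The stretch that encodes the mature peptide of 21 residues was found in the principal GENCODE 29 transcripts by the spacing of its cysteines, and lies at chr6:12292433-12292495 (plus strand, codons 53 to 73 of 212) for EDN1 and at chr1:41484061-41484123 (minus strand, codons 49 to 69 of 178) for EDN2, both in GRCh38. Capitals mark the bases at which both genes differ.
EDN1: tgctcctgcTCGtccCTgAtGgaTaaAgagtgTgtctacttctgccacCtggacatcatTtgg
EDN2: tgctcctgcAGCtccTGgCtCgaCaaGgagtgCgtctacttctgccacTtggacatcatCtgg
Of 63 bases 51 are shared, and of the 8 codons that differ in sequence 2 also differ in the amino acid they encode. The deposited counts of EDN1 and EDN2 were whole numbers in all 6 libraries, while those of ECE1 and ECE2 carried decimals.

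EDN2 was far lower with both siRNAs, while EDN1, at 12 to 22 counts per library, did not pass the test in either comparison with NC. Any part of the sequences before the start sites in this was not tested, and they are shown as a description. That of EDN2 lies at chr1:41484684-41484933 (minus strand) and that of EDN1, before the most downstream of 3 listed EDN1 start sites, at chr6:12290111-12290360 (plus strand), both from RefSeq on GRCh38.p14, 250 bases up to the start site. Capitals mark matches to the motifs searched.
EDN2: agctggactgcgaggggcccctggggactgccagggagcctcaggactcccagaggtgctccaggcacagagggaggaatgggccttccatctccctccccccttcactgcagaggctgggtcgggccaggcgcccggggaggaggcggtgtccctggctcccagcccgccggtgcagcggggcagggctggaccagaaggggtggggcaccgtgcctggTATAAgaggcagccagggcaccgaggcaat
EDN1: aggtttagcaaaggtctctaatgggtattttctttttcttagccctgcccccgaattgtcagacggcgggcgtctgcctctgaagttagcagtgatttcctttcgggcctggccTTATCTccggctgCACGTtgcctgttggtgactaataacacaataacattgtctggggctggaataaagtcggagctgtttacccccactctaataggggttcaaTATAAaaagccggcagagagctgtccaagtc
Both hold TATAA, the core of a TATA box, beginning 30 bases before the EDN2 start and 31 bases before the EDN1 start. This run occurs, on either strand, in 18.9% of 35116 windows of the same length. EDN1 also holds a match to the GATA motif AGATAA (9.17% of windows) and to the hypoxia response core ACGTG (18.5%), each read from the opposite strand. Neither window held the AP-1 motif TGANTCA (6.57% of windows) or the E2F motif TTTNGCGC (1.51%). Within these windows GC made up 70.8% for EDN2 and 49.2% for EDN1, against a median of 58.0% over all windows. Of the 6 genes 5 had an entry in this table, and ECE2 had none.

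Library totals lay between 18825750 and 19158723 counts. MEX3A itself had 94 and 109 counts in NC, 56 and 64 with siMEX3A_1, and 73 and 76 with siMEX3A_2. Its log2 fold change was -0.71 (SE 0.17, edgeR adjusted p = 0.00655) with siMEX3A_1, a call that ended with DESeq2 (adjusted p = 0.0888), and -0.42 (SE 0.17, edgeR adjusted p = 0.0644) with siMEX3A_2. In the authors' deposited tables MEX3A passed with neither siRNA (adjusted p = 0.137 with siMEX3A_1 and 0.392 with siMEX3A_2). Of the 8 kidney epithelial markers listed, all passed the filter on low counts, with PAX8 between 10418 and 16111 normalized counts. With siMEX3A_1, 4 rose and 3 fell, where 27.0% of all 18583 genes tested were called higher and 25.9% lower. With siMEX3A_2, 2 rose and 6 fell, where 25.2% of all genes were higher and 25.7% lower. Directly compared, 7 were higher with siMEX3A_1 than with siMEX3A_2, against 26.0% of all genes. Their summed level was 44014 and 45292 normalized counts in NC, 67535 and 63198 with siMEX3A_1, and 38693 and 36905 with siMEX3A_2. Endothelial cells are a main source of endothelin in tissue, and of the 7 endothelial markers found none passed the filter. ERG was at 0 in every library, CDH5 and KDR never exceeded 1 count, and the summed level of the 7 was 13.9 and 27.3 normalized counts in NC, 8.09 and 11.2 with siMEX3A_1, and 9.003 and 6.01 with siMEX3A_2. In single libraries TIE1 reached 13 counts, TEK 9, VWF 7 and CLDN5 4. The libraries of NC had the highest endothelial sums and those of siMEX3A_1 the highest kidney epithelial sums. Of 8 markers of other cell types 5 passed the filter, CD3E was at 0 in every library, and the summed level was 604 and 646 normalized counts in NC, 929 and 865 with siMEX3A_1, and 866 and 891 with siMEX3A_2. In that list CD68, a lysosomal protein gene used as a macrophage marker, rose from 307 ± 18.3 to 597 ± 22.1 and 589 ± 26.7 (edgeR adjusted p = 5.95e-06 and 9.72e-06), MLANA rose with siMEX3A_2 from 7.37 ± 1.99 to 18.5 ± 2.11 (edgeR adjusted p = 0.0287), and no marker fell. The part of these marker levels in the results below was not tested.

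EDN2, which encodes the ligand endothelin 2, was the member with the highest level per length in NC, and it was far lower with each siRNA. The NC libraries held 4747 and 4659 EDN2 counts, those of siMEX3A_1 990 and 979, and those of siMEX3A_2 204 and 191. The groups stood wide apart and the libraries within each group were close together. In normalized counts, which are counts scaled by library size with TMM factors, the means were 4628 ± 120 in NC, 1000.01 ± 1.56 with siMEX3A_1 and 198 ± 9.04 with siMEX3A_2 (SD, n = 2 libraries each). Against NC the level was thus 21.6% with siMEX3A_1 (log2 fold change -2.21, SE 0.06) and 4.27% with siMEX3A_2 (log2 fold change -4.55, SE 0.07). These values chose the gene and carry no test. Bulk RNA cannot tell a fall in every cell from a loss of the cells that held most of the transcript.

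The direct contrast of the siRNAs was not itself used to choose EDN2. It is the difference of the fold changes against NC that chose the gene, from the same libraries, so its p-value is not independent of that choice. EDN2 was 5.06-fold higher with siMEX3A_1 than with siMEX3A_2, or by 2.34 on the log2 scale (edgeR adjusted p = 2.54e-08, SE 0.07, 95% interval 2.17 to 2.50). The call held in each alternative, with log2 differences from 2.29 to 2.39. Over all 18583 genes tested, 51.6% were called in this contrast, 26.0% higher and 25.5% lower with siMEX3A_1.

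**Figure D1:**
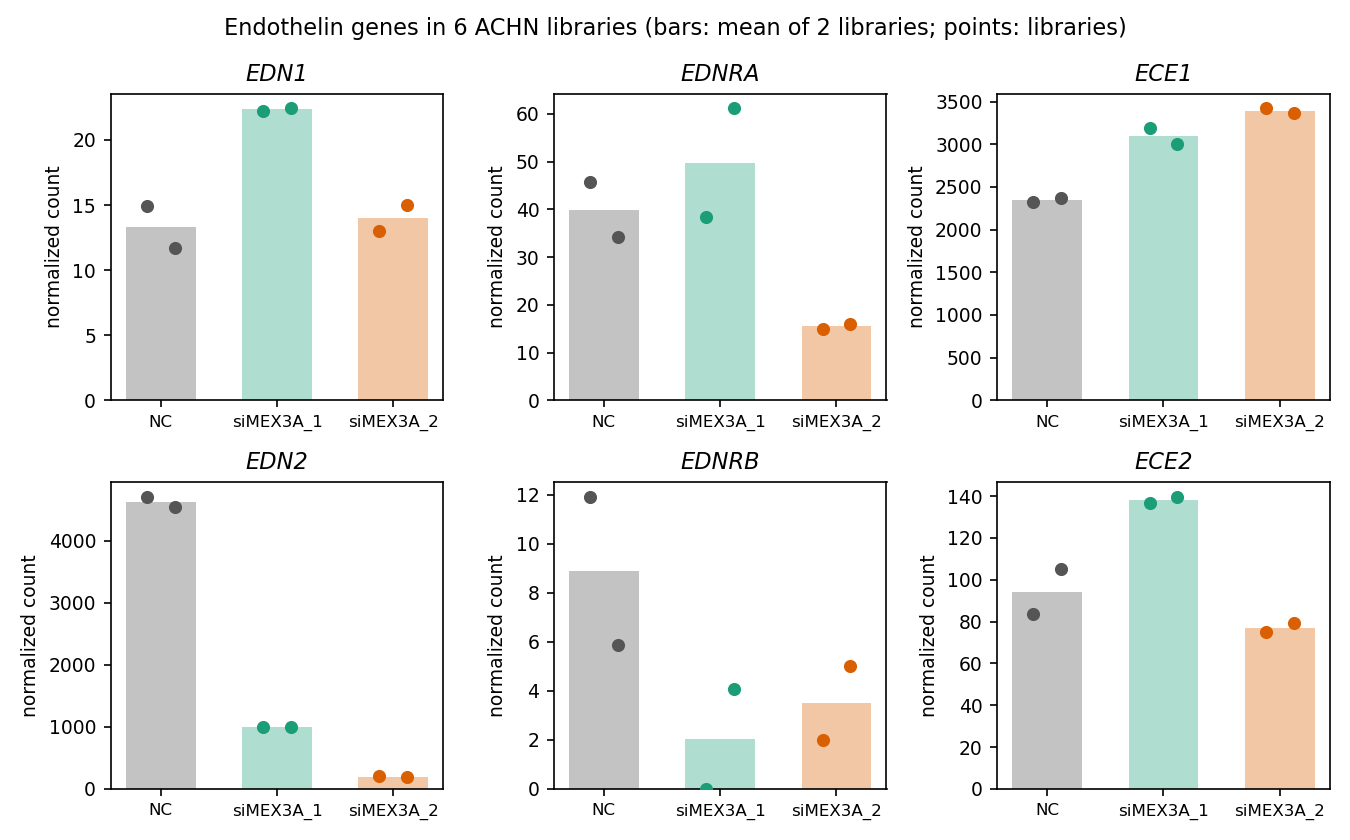
Normalized counts (vertical axes, each starting at 0) of the 6 endothelin genes in NC, siMEX3A_1 and siMEX3A_2 (horizontal axes). Bars are means of 2 libraries and points are libraries. EDN2 steps down from 4628 to 1000.01 to 198, while ECE1 is higher with each siRNA than in NC.

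EDN1, which encodes endothelin 1, the main endothelin of the vessel wall, was a low transcript. It had 15 and 12 counts in NC, 22 and 22 with siMEX3A_1, and 13 and 15 with siMEX3A_2. Both siMEX3A_1 libraries lay above every other library, and those of NC and siMEX3A_2 overlapped. The log2 fold change with siMEX3A_1 was 0.74 (SE 0.36, 95% interval -0.07 to 1.56, edgeR adjusted p = 0.116) and with siMEX3A_2 it was 0.08 (SE 0.38, 95% interval -0.79 to 0.94, edgeR adjusted p = 0.886). Between siMEX3A_1 and siMEX3A_2 no difference was detectable at this depth (log2 difference 0.67, 95% interval -0.15 to 1.48, edgeR adjusted p = 0.155). EDN3, the gene of the remaining endothelin ligand, was at 0 counts in all 6 libraries.

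Set against each other per kilobase of merged GENCODE 29 exons, the ligands came closer with each siRNA. In NC the level of EDN2 was 2824 ± 73.5 and that of EDN1 6.54 ± 1.11 normalized counts per kilobase (SD, n = 2), a ratio of 432. The ratio was 55.5 with siMEX3A_1 and 17.5 with siMEX3A_2, and it contains the fall of EDN2 on which the set was selected. EDN2 still exceeded EDN1 in every library. The exon lengths come from another annotation than the one the authors counted with, so these levels per kilobase are approximate.

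EDNRA, the receptor of smooth muscle and many tumour lines, had 46 and 35 counts in NC, 38 and 60 with siMEX3A_1, and 15 and 16 with siMEX3A_2. The siMEX3A_2 libraries were the lowest of all 6, and those of NC and siMEX3A_1 overlapped. EDNRA fell with siMEX3A_2 to 38.9% of its NC level, with a log2 fold change of -1.36 (edgeR adjusted p = 0.0085, SE 0.34, 95% interval -2.13 to -0.58). That call ended without NC replicate 1 (log2 fold change -1.13, edgeR adjusted p = 0.0651) and without siMEX3A_2 replicate 1 (-1.31, edgeR adjusted p = 0.0535), EDNRA was not tested with a minimum mean of 50 counts, and in the authors' deposited table the adjusted p was 0.0814. With siMEX3A_1 the log2 fold change was 0.32 (SE 0.30, edgeR adjusted p = 0.401), and it was -0.05 without siMEX3A_1 replicate 2. Tested directly, EDNRA was 3.21-fold higher with siMEX3A_1 than with siMEX3A_2 (log2 difference 1.67, SE 0.34, edgeR adjusted p = 0.00223), and this call held in the 12 alternatives in which EDNRA could be fitted.

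EDNRB, the receptor known in kidney for its role in the collecting duct and in endothelium, was close to absent. It had 12 and 6 counts in NC, 0 and 4 with siMEX3A_1, and 2 and 5 with siMEX3A_2, and it alone of the 6 genes did not pass the filter on low counts. Without that filter its log2 fold changes were -2.06 (SE 1.00, edgeR adjusted p = 0.219) and -1.31 (SE 0.91, edgeR adjusted p = 0.449), from sums of 18, 4 and 7 counts per group. Without siMEX3A_1 replicate 2 the filter let EDNRB pass, and it was called lower with siMEX3A_1 (edgeR adjusted p = 0.0304). That fit rests on the lone siMEX3A_1 library with 0 counts, so its fold has no bound. In the other fits that tested EDNRB it did not pass in any contrast. The antisense transcript EDNRB-AS1 was at 0 in all libraries.

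ECE1, the main endothelin converting enzyme, rose with both siRNAs. NC had 2335 and 2428 counts, siMEX3A_1 had 3160 and 2947, and siMEX3A_2 had 3422 and 3360. Every siRNA library lay above both NC libraries, and the siMEX3A_2 libraries above those of siMEX3A_1. The normalized count was 32.4% higher than in NC with siMEX3A_1 (log2 fold change 0.40, SE 0.06, edgeR adjusted p = 0.000208) and 44.9% higher with siMEX3A_2 (0.53, SE 0.06, edgeR adjusted p = 4.03e-05), the calls holding in all 13 alternatives. Both comparisons share the NC libraries. Between the siRNAs the log2 difference was -0.13 (95% interval -0.26 to -0.00448, edgeR adjusted p = 0.0787). It passed with library size as the only scaling (edgeR adjusted p = 0.0281) and with a minimum mean of 50 counts (0.0375).

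ECE2, a related enzyme that works best in acidic compartments, moved differently. It had 84 and 108 counts in NC, 135 and 137 with siMEX3A_1, and 75 and 79 with siMEX3A_2, so that the 3 groups did not overlap. ECE2 rose with siMEX3A_1 by 46.4% (log2 fold change 0.55, SE 0.16, edgeR adjusted p = 0.0155), a call that ended with DESeq2 (adjusted p = 0.13) and without NC replicate 1 (log2 fold change 0.40, edgeR adjusted p = 0.0906). In the authors' deposited table its adjusted p was 0.177. With siMEX3A_2 the log2 fold change was -0.29 (SE 0.17, 95% interval -0.67 to 0.09, edgeR adjusted p = 0.182). The direct difference was 0.84 (SE 0.16, edgeR adjusted p = 0.00179) and held in all 13 alternatives. RefSeq lists a readthrough transcript of ECE2 with its neighbour EEF1AKMT4, whose reads the counting could divide, so the values of ECE2 are uncertain.

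**Figure D2:**
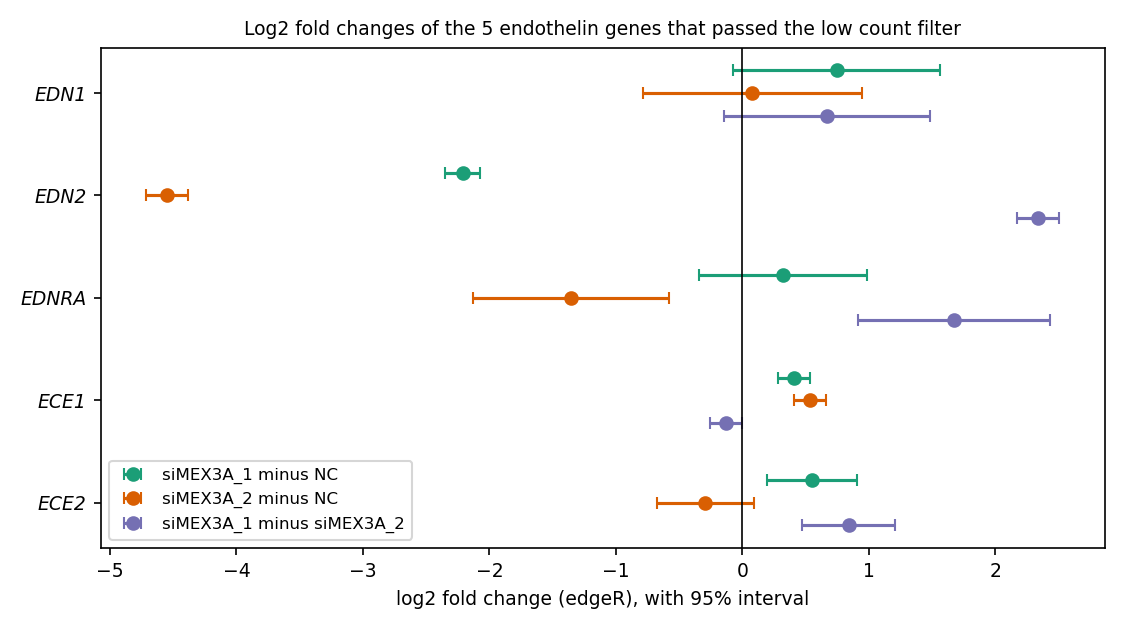
Log2 fold changes (horizontal axis, edgeR, with 95% intervals) of the 5 endothelin genes that passed the low count filter (vertical axis) in 3 contrasts, marked by colour. EDN2 lies at -2.21 and -4.55 against NC, ECE1 at 0.40 and 0.53, and EDNRA and ECE2 lie to the right of 0 in the direct contrast, at 1.67 and 0.84. The EDN2 values against NC chose the gene, so their intervals are a description and not a test.

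Counted over the 4 members other than EDN2 that were tested, 2 rose (ECE1 and ECE2) and 0 fell with siMEX3A_1, where 27.0% of all genes were called higher and 25.9% lower. With siMEX3A_2, 1 rose (ECE1) and 1 fell (EDNRA), where 25.2% of all genes were called higher and 25.7% lower. In the direct contrast 3 of 5 members (EDN2, EDNRA and ECE2) were higher with siMEX3A_1 and 0 were lower, where 26.0% of all genes were called higher and 25.5% lower. That count includes EDN2, which was chosen on its values in the same siRNA libraries. Without siMEX3A_1 replicate 2 the fall of EDNRB with siMEX3A_1 added 1, and without NC replicate 1 both ECE2 with siMEX3A_1 and EDNRA with siMEX3A_2 were lost. With 52.9% and 50.9% of all genes called in either direction against NC, these counts are no result about the system as a group.

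The order of the levels changed within the system. Per kilobase, NC libraries ranked EDN2 first (2824 ± 73.5), then ECE1 (320 ± 4.73), ECE2 (19.95 ± 3.28), EDNRA (9.41 ± 1.93), EDN1 (6.54 ± 1.11) and EDNRB (1.58 ± 0.76), with no overlap between neighbours. With siMEX3A_1 the order was the same, but EDN2 (610 ± 0.95) exceeded ECE1 (423 ± 18.2) by only 1.44-fold, and EDNRA (11.8 ± 3.80) and EDN1 (11.0 ± 0.07) overlapped. With siMEX3A_2 ECE1 (463 ± 5.61) stood above EDN2 (121 ± 5.52) by 3.84-fold, and EDN1 (6.89 ± 0.70) above EDNRA (3.66 ± 0.17). Before division by length EDN1 had 28 and EDNRA 31 summed counts with siMEX3A_2, so their order rests on the approximate exon lengths. Per kilobase, the level of ECE1 thus stood at 0.113 of that of EDN2 in NC and at 0.693 and 3.84 times it with the siRNAs. These ratios contain the fall of EDN2 on which the set was selected.

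Genes with a pattern most like EDN2 were sought among 10750 others with a mean of at least 100 normalized counts, by the Euclidean distance over 6 libraries of log2 CPM (counts scaled to a common library size) centred on each gene's mean. The nearest was ASIC1, an acid-sensing ion channel gene, at a distance of 1.44. In NC ASIC1 stood at 296 ± 14.3 normalized counts, against 133 ± 0.12 and 29.03 ± 9.93 with the siRNAs. SPINT1, which encodes a protease inhibitor of epithelia, lay at 1.75 and went from 275 ± 32.7 to 112 ± 0.01 and 37.5 ± 3.57. ADAMTSL4 lay at 1.79 and went from 661 ± 0.59 to 287 ± 31.3 and 95.1 ± 8.57. All 3 fell in the same order of groups as EDN2 but by less, with log2 fold changes from -1.29 to -1.16 with siMEX3A_1 and from -3.35 to -2.80 with siMEX3A_2.

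**Figure D3:**
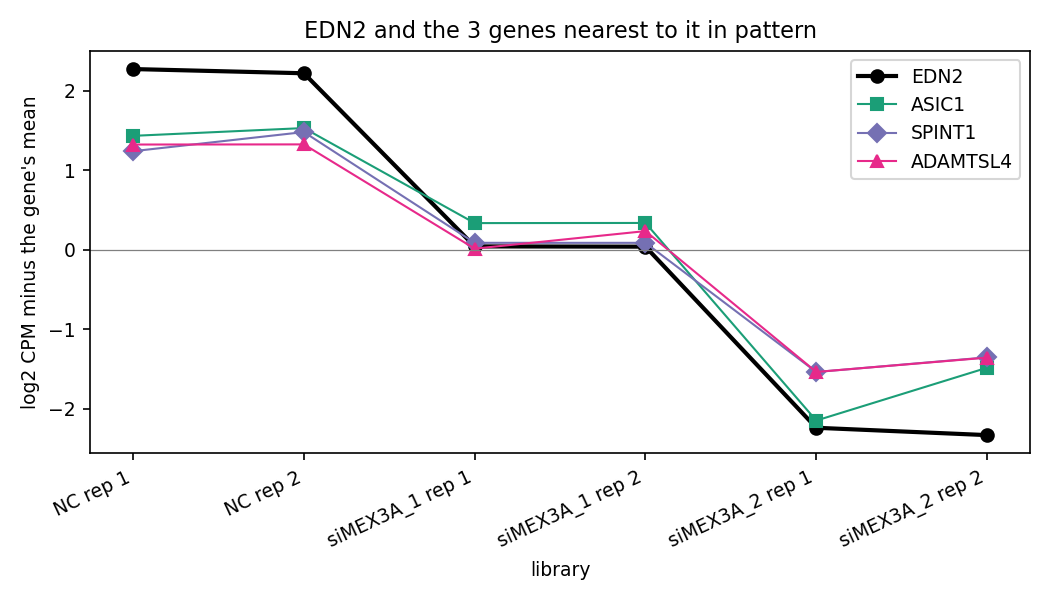
Log2 CPM minus the mean of each gene (vertical axis) in 6 libraries (horizontal axis) for EDN2 and the 3 genes nearest to it. Lines join the points of a gene for reading only. EDN2 spans the widest range, and ASIC1, SPINT1 and ADAMTSL4 follow the same steps at smaller size.

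The other members had closer neighbours in pattern. JARID2, a chromatin regulator, lay at 0.05 from ECE1, going from 234 ± 0.21 normalized counts in NC to 311 ± 15.3 and 337 ± 4.52, and OVCA2 and DDB2 both lay at 0.06. FAT1 (0.28), the growth factor receptor gene EGFR (0.31) and WWTR1 (0.39) were nearest to EDNRA. In NC EGFR stood at 25329 ± 3817 normalized counts, against 29999 ± 5193 with siMEX3A_1 and 11881 ± 81.0 with siMEX3A_2. ACOX3, CMTM8 and ZCRB1 were nearest to ECE2 at 0.11 to 0.14, and STK38L, PCNP and NUDT18 to EDN1 at 0.16 to 0.17. A pattern over 3 groups is shared by many genes, and EDN1 rests on few counts.

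Of the protein-coding genes beside EDN2 in RefSeq, FOXO6, a transcription factor gene, also fell with both siRNAs, from 19.7 ± 0.25 normalized counts in NC to 7.11 ± 1.39 (log2 fold change -1.45, edgeR adjusted p = 0.0232) and 3.002 ± 1.41 (-2.66, edgeR adjusted p = 0.00222). HIVEP3, on the other side, had 94.5 ± 10.9, 100.04 ± 2.96 and 82.6 ± 17.8 normalized counts and did not pass (edgeR adjusted p = 0.742 and 0.434). Beside ECE2, the kinase inhibitor gene CAMK2N2 fell from 45.2 ± 2.20 to 10.2 ± 1.501 (log2 fold change -2.14, edgeR adjusted p = 0.000462) and 5.50 ± 0.71 (-3.01, edgeR adjusted p = 0.000112), while ECE2 did not fall in either comparison by the test. PSMD2, on the other side of ECE2, fell with siMEX3A_1 (log2 fold change -0.56, edgeR adjusted p = 8.79e-06) and rose with siMEX3A_2 (0.21, edgeR adjusted p = 0.00477). SLAIN1, beside EDNRB, fell with both (-3.70 and -1.77, edgeR adjusted p = 1.18e-06 and 5.02e-05), and POU4F1 on the other side was near 0. HIVEP1 and PHACTR1, on either side of EDN1, rose with both, by 0.70 and 0.71 (edgeR adjusted p = 0.000191 and 0.000206) and by 0.73 and 0.55 (edgeR adjusted p = 0.00316 and 0.016). TTC29, beside EDNRA, rose from 0.98 ± 0.01 normalized counts to 10.2 ± 0.06 and 14.01 ± 1.40 (edgeR adjusted p = 0.00298 and 0.0011). TMEM184C beside EDNRA and NBPF3 beside ECE1 fell with siMEX3A_2 (-0.20 and -0.55, edgeR adjusted p = 0.0425 and 0.0102), EIF4G3 beside ECE1 rose with it (0.22, edgeR adjusted p = 0.0495), and none of these 3 passed with siMEX3A_1 (edgeR adjusted p = 0.314, 0.0988 and 0.106).

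A list of 15 held EDN3 and genes known to process or clear peptides, and 7 of them passed the filter, EDN3 not among them. With each siRNA 2 rose and 2 fell, where 52.9% and 50.9% of all genes were called in either direction (median log2 fold change -0.31 and -0.14, against -0.01 and -0.002 over all genes tested). FURIN, the protease that makes the first cut in the precursor, fell from 667 ± 13.4 normalized counts to 537 ± 15.99 (log2 fold change -0.31, edgeR adjusted p = 0.00756) and 504 ± 49.1 (-0.40, edgeR adjusted p = 0.00206). PCSK7, another convertase of this family, rose by 0.37 and 0.28 on the log2 scale (edgeR adjusted p = 0.00131 and 0.00723). CPE, a carboxypeptidase of peptide maturation, fell by 1.03 and by 1.12 (edgeR adjusted p = 0.00207 and 0.00144). MME, which encodes neprilysin, a kidney brush border enzyme that degrades endothelins, had 150 ± 7.48 normalized counts in NC and 129 ± 6.56 with siMEX3A_1 (edgeR adjusted p = 0.145), and rose to 379 ± 1.01 with siMEX3A_2 (log2 fold change 1.34, edgeR adjusted p = 4.93e-06). Of the 7 tested genes MME alone was called between the siRNAs (log2 difference -1.55, edgeR adjusted p = 1.57e-06), where 51.6% of all genes were called. With siMEX3A_1 the list's rises numbered 1 without siMEX3A_1 replicate 2, and its rises and its falls were each 1 with DESeq2 and without NC replicate 1. With siMEX3A_2 its rises numbered 1 without NC replicate 1 and without siMEX3A_2 replicate 1.

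Below the receptors, 20 of 22 genes of G proteins, phospholipase C, calcium release and protein kinase C were tested. With siMEX3A_1, 8 rose and 5 fell (median 0.15), and with siMEX3A_2, 6 rose and 7 fell (median -0.04), against 52.9% and 50.9% of all genes called in either direction. Without NC replicate 2 the rises with siMEX3A_1 numbered 5. GNA11, a Gq-family subunit that endothelin receptors use, rose from 629 ± 65.7 normalized counts to 1042 ± 25.7 with siMEX3A_1 (log2 fold change 0.73, edgeR adjusted p = 4.43e-05) and fell to 433 ± 26.5 with siMEX3A_2 (-0.54, edgeR adjusted p = 0.000618). GNAQ, the other Gq subunit gene of the list, named here after its values were seen, fell with siMEX3A_1 from 1483 ± 132 to 1077 ± 80.1 (-0.46, edgeR adjusted p = 0.000981) and stood at 1565 ± 45.4 with siMEX3A_2 (0.08, edgeR adjusted p = 0.456). PRKCE, a protein kinase C gene, fell by 1.73 and by 0.54 on the log2 scale (edgeR adjusted p = 6.01e-08 and 0.000115). GNAI1 fell with siMEX3A_2 by 1.30 (edgeR adjusted p = 4.33e-07) and had a log2 fold change of -0.10 with siMEX3A_1 (edgeR adjusted p = 0.170). With siMEX3A_2 the calcium channel gene ITPR2 rose by 1.06 and its relative ITPR1 fell by 1.06 (edgeR adjusted p = 4.91e-05 and 7.19e-05).

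Genes that switch receptors off were tested in 10 of 12 cases. With siMEX3A_1, 4 rose and 4 fell (median -0.06), and with siMEX3A_2, 1 rose and 3 fell (median 0.02), against 52.9% and 50.9% of all genes called. The rises with siMEX3A_1 numbered 2 with DESeq2 and without NC replicate 2. GRK5, a kinase that marks active receptors, rose from 275 ± 11.9 normalized counts to 498 ± 1.00 and 488 ± 20.8 (log2 fold change 0.86 and 0.83, edgeR adjusted p = 1.17e-05 and 1.99e-05). The other GRK genes tested went different ways. GRK3 fell with siMEX3A_1 only (-0.59, edgeR adjusted p = 0.000593) and GRK2 with siMEX3A_2 only (-0.44, edgeR adjusted p = 0.00231). GRK4 rose with siMEX3A_1 only (0.93, edgeR adjusted p = 0.0369), and GRK6 passed with neither. The arrestin genes, whose products bind marked receptors, fell with both siRNAs: ARRB2 by 0.85 and by 0.74 (edgeR adjusted p = 2.63e-05 and 7.32e-05), and ARRB1 by 1.06 and by 0.71 (edgeR adjusted p = 0.00056 and 0.00557). GRK5 and both arrestin genes did not differ detectably between the siRNAs (edgeR adjusted p = 0.780, 0.392 and 0.139).

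In the kinase arm all 20 listed genes were tested. With siMEX3A_1, 9 rose and 5 fell (median 0.13), and with siMEX3A_2, 7 rose and 10 fell (median -0.09), against 52.9% and 50.9% of all genes called. With siMEX3A_2 the rises numbered 4 without NC replicate 2, and the falls 6 without siMEX3A_2 replicate 2. The adaptor gene SHC1 rose by 0.89 and 0.76 on the log2 scale (edgeR adjusted p = 1.79e-07 and 9.51e-07). HRAS rose with siMEX3A_1 by 1.15 (edgeR adjusted p = 1.97e-05) and fell with siMEX3A_2 by 0.76 (edgeR adjusted p = 0.000999). PTK2B, a calcium-activated tyrosine kinase gene, fell with siMEX3A_2 from 1125 ± 33.6 to 355 ± 49.3 normalized counts (log2 fold change -1.66, edgeR adjusted p = 6.91e-07) and stood at 975 ± 25.4 with siMEX3A_1 (-0.21, edgeR adjusted p = 0.0532).

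Other vasoactive peptides and their receptors made a list of 28, of which 9 were tested. With siMEX3A_1, 4 rose and 5 fell (median -0.80), and with siMEX3A_2, 1 rose and 5 fell (median -0.88), against 52.9% and 50.9% of all genes called. ADM, the gene of the vasodilator adrenomedullin, rose from 237 ± 1.64 to 1296 ± 47.8 normalized counts with siMEX3A_1 (log2 fold change 2.45, edgeR adjusted p = 3.94e-08) and fell to 129 ± 22.8 with siMEX3A_2 (-0.88, edgeR adjusted p = 0.000193). APLN, the gene of apelin, fell like EDN2 with both siRNAs, though to the lowest level with siMEX3A_1, from 81.1 ± 8.01 to 10.2 ± 2.94 (log2 fold change -2.98, edgeR adjusted p = 3.31e-05) and 26.0 ± 7.06 (-1.64, edgeR adjusted p = 0.00075). CALCRL, which forms adrenomedullin receptors together with a RAMP protein, rose by 0.88 and 0.98 on the log2 scale (edgeR adjusted p = 0.00113 and 0.000644). Its partner gene RAMP2 fell with both, from 19.7 ± 0.25 normalized counts in NC to 1.02 ± 0.01 and 5.005 ± 1.42 (edgeR adjusted p = 0.000393 and 0.00686), levels of few reads. The falls with siMEX3A_1 numbered 3 with DESeq2, with no filter, with the replicate block, and without any 1 of NC replicate 1, NC replicate 2, siMEX3A_1 replicate 1 and siMEX3A_1 replicate 2. Those with siMEX3A_2 numbered 3 with DESeq2, without NC replicate 1 and without siMEX3A_2 replicate 1. With a minimum mean of 50 counts they numbered 0 and 1.

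**Figure D4:**
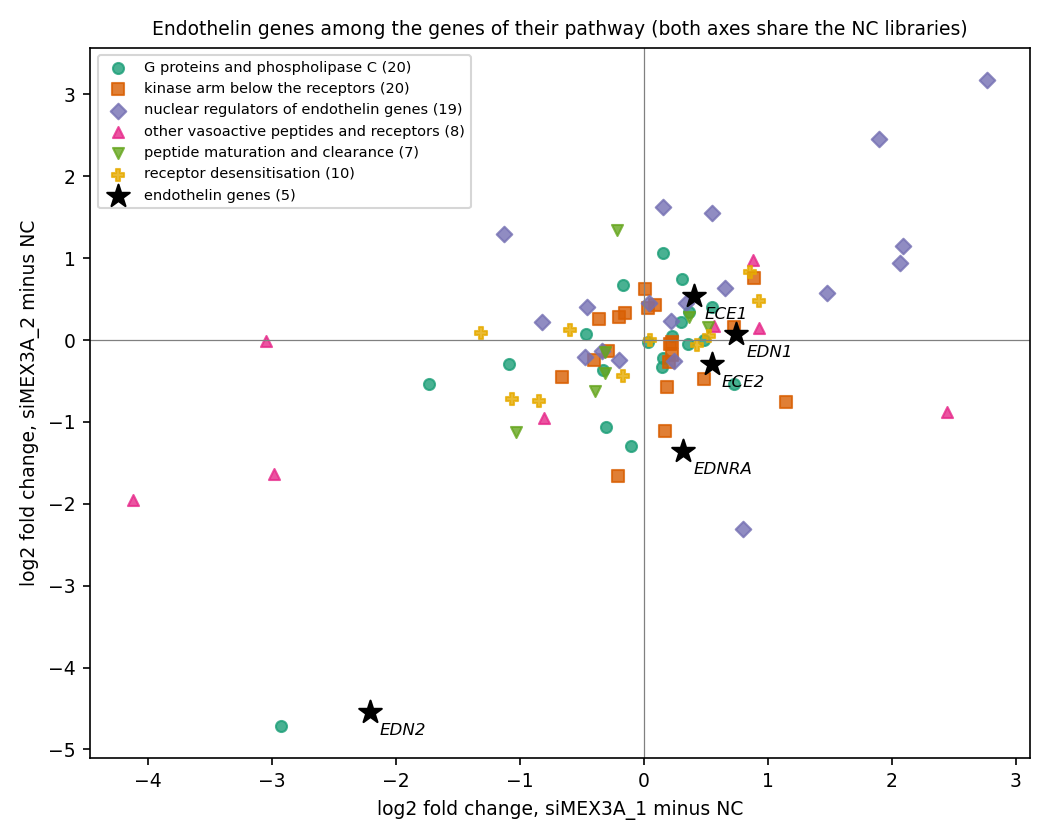
Log2 fold changes with siMEX3A_1 (horizontal axis) and with siMEX3A_2 (vertical axis) against the same NC libraries, for 5 endothelin genes (stars) and the tested genes of 6 lists. NPR1 is left out because siMEX3A_2 had 0 counts. EDN2 lies at -2.21 and -4.55, and the only list gene near it is GNAO1, which had 16.2 normalized counts in NC.

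Nuclear regulators that have been linked to endothelin genes, a list of 20 with 19 tested, rose in 11 cases and fell in 6 with siMEX3A_1 (median 0.24) and rose in 14 and fell in 4 with siMEX3A_2 (median 0.45). Over all genes 27.0% were called higher and 25.9% lower with siMEX3A_1, and 25.2% higher and 25.7% lower with siMEX3A_2. Like the other lists, this list was chosen with earlier results of these data known, so its counts are a description. The falls with siMEX3A_2 numbered 1 without NC replicate 1 or siMEX3A_2 replicate 1, and 2 without siMEX3A_2 replicate 2. JUN, a subunit of AP-1, rose by 2.09 and 1.15 on the log2 scale (edgeR adjusted p = 2.49e-08 and 1.41e-06), and KLF4 by 2.77 and 3.18 (edgeR adjusted p = 4.12e-07 and 3.56e-07). EPAS1, the hypoxia-inducible factor 2 alpha gene, went from 15038 ± 1004 normalized counts in NC to 26264 ± 1548 with siMEX3A_1 (log2 fold change 0.80, edgeR adjusted p = 2.00e-06) and 3046 ± 20.8 with siMEX3A_2 (-2.30, edgeR adjusted p = 2.33e-08).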

How the data were processed

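Per the labels' protocols, BGI built mRNA libraries from total RNA and read them from a single end. The submitters' processing notes list STAR and RSEM, without versions, and the builds hg19 and GRCh37. The 2 deposited tables hold the authors' expected counts per gene and library, and the authors' comparison of each siRNA with NC, whose headers are those of DESeq2: a mean treated as a score, a log2 fold change with its error, a statistic treated as a score, and p-values. Strandedness of the counting was not given in the sources used here.

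Expected counts were rounded and fitted with edgeR 4.0.16 in R 4.3.3 (quasi-likelihood test, TMM scaling, default filter on low counts, one spread over 6 libraries), with 18583 genes tested and a Benjamini-Hochberg adjusted p under 0.05 as the threshold. Totals lay between 18825750 and 19158723 counts. DESeq2 1.42.0, other scalings and filters, 4-library fits, a replicate block and leaving out each library were alternatives. The fit was tried on simulated counts with a single spread for all genes and few changed genes. These libraries differ from that setting, so the simulation cannot check the calls given here. Members and lists were chosen with earlier results of these data known. Besides the members and MEX3A, the text named up to 4 genes per list and contrast by lowest p, the 3 genes nearest in pattern, and genes beside a member. GNAO1, GNAQ, GRK4 and GRK6 were named after their values were seen. Standard errors are the fold change over the square root of F. Intervals use the t quantile of the fit. All list symbols but RGS5 and PECAM1 matched a single row. Exon lengths and coding sequences come from GENCODE 29 (GRCh38) and promoters from RefSeq, not from the authors' annotation. Proteins are not shown, since no protein table was used here.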

Additional observations from a re-analysis of the deposited data

Results flagged for a closer look

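Of the 5 endothelin genes tested, 3 differed between the siRNAs by the direct test. EDN2 was higher with siMEX3A_1 than with siMEX3A_2 by 2.34 on the log2 scale (edgeR adjusted p = 2.54e-08), EDNRA by 1.67 (edgeR adjusted p = 0.00223) and ECE2 by 0.84 (edgeR adjusted p = 0.00179), with both libraries of siMEX3A_1 above both of siMEX3A_2 in each case. Over all genes 51.6% were called in this contrast, and EDN2 was chosen on its values in the same siRNA libraries. Groups of 2 libraries are too small for a search for outlying libraries.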

How the results depend on the processing

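Over 13 alternatives the counts of genes called stayed within 1.5 times the main value. With library size as the only scaling EDN2 moved to -2.27 with siMEX3A_1, and ECE1 passed in the direct contrast at -0.18 on the log2 scale, as it did at -0.15 with a minimum mean of 50 counts, which also let MEX3A pass with siMEX3A_2 at -0.43. With DESeq2 the calls with siMEX3A_1 of ECE2 (0.56) and MEX3A (-0.70) ended. Leaving out 1 library gave -0.0475 to 0.63 for EDNRA and 0.40 to 0.73 for ECE2 with siMEX3A_1, and -0.089 to 0.26 for EDN1 and -1.55 to -1.13 for EDNRA with siMEX3A_2. Direction changed for EDNRA with siMEX3A_1 without its replicate 2, and for EDN1 with siMEX3A_2 without NC replicate 2 and, at -0.02, without siMEX3A_2 replicate 2, in no case past the threshold. The cause of these changes was not tested. Where 1 library is left out, the lone sample of its group is assumed to vary like the other groups.

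Same-numbered libraries deviated together with correlations of -0.11, 0.03 and -0.01 over 18583 genes, so the numbers were not taken to pair libraries. With the replicate block 9328, 8932 and 9101 genes were called in the 3 contrasts, against 9836, 9457 and 9582 without it, and no call of a member changed. The falls among other vasoactive genes with siMEX3A_1 numbered 3 with the block and 5 without it. Of 546 list counts under the alternatives 500 stayed within 1.5 times the main count. EDN1, EDNRA and EDNRB are limited by depth, at under 100 counts per group.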
